A study of Rattus norvegicus with 8 samples.

Results

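The genes described here encode proteins that splice, cleave, export, edit and degrade RNA. They are Adarb1, added by name, and the genes whose symbols begin with the stem of a family with such a role (Hnrnp, Srsf, Ddx, Dhx, Rbm, Snrp, Prpf, Cpsf, Cnot, Elavl, Thoc, Ints or Pabp, among others). This rule held no expression value, but the members were chosen with earlier results of these data known. The rule found 32 genes among the 1998 gene IDs that could be paired with a symbol, out of 32623 IDs counted. Names could be paired for only a part of the IDs, so each family is represented by some of its members and no family is complete. Of the 32 genes, 30 had enough reads to be tested, out of 14043 genes tested in all.

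RNA was sequenced from retinal ganglion cells (RGCs), the neurons whose axons form the optic nerve, of Sprague Dawley rats at 2 ages. The E21 group holds 4 libraries from embryos at embryonic day 21, and the P11 group holds 4 libraries from pups at postnatal day 11, each library from cells pooled within an independent litter. The labels name no genotype or treatment for either group beyond its age. RGCs of both ages were dissociated with papain and purified by immunopanning, in which cells that bind an anti-macrophage serum are first removed and the RGCs are then held on a plate coated with an antibody to Thy1. The comparison asks which genes differ between RGCs taken before birth and RGCs taken after it.

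A newly made messenger RNA is capped, its introns are removed by the spliceosome, its 3' end is cut and given a poly(A) tail, and it is packaged for export to the cytoplasm, where it is translated and finally degraded. Serine/arginine-rich (SR) proteins and heterogeneous nuclear ribonucleoproteins (hnRNPs) bind the transcript and set which exons are kept. Neurons use alternative splicing and RNA editing extensively, and the adenosine deaminase encoded by Adarb1 recodes the transcripts of glutamate receptor subunits.

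Of the 30 tested genes, 18 (60%, against 33.8% of all genes) had more RNA at E21 by adjusted p alone, mostly by less than a doubling. The editing enzyme Adarb1 had more at P11. The deadenylase genes, most nucleolar helicases and single members such as Srsf9 did not pass an adjusted p of 0.01. Not passing does not mean equal levels. The helicase gene Ddx55, which did not pass, was 1.24-fold higher at E21, and Prpf8, which passed, 1.25-fold. On the scale of log2 fold changes of E21 over P11, where 1 is a doubling, 28 of the 30 tested genes had a positive value and 2 a negative one, with a median of 0.39 and a range of -1.75 to 1.31. The median over all genes tested was 0.0042.

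A gene was called where its adjusted p in edgeR's quasi-likelihood test was under 0.01 and it differed by more than 1 on the log2 scale. Of the tested members, 3, or 10% (Hnrnph1, Thoc3 and Ddx39a), were called at E21, against 8.16% of all genes. A single member, or 3.33% (Adarb1), was called at P11, against 16.5% of all genes. The share called at E21 lay near that of all genes, so at this fold threshold the members were not set apart at E21. Thoc3 and Ddx39a lay just past the threshold, and with library-size scaling the count at E21 was 1.

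With the adjusted p of 0.01 alone, 18 of the 30, or 60%, were higher at E21, against 33.8% of all genes, and 1 was higher at P11, against 34.6%. The remaining 11 did not pass. Many of these genes are abundant, and small changes are easier to detect in abundant genes. In the top tertile of mean expression, 12 of 15 members, or 80%, were past the adjusted p at E21, against 47.3% of all genes in that tertile. In 20 members (66.7%) every E21 library lay above every P11 library, against 35.4% of all genes, and 1 (Adarb1) had all P11 libraries above all E21 libraries, against 35.9%. These counts were not tested as a set. The members could come only from the 1779 tested genes with a symbol, and the shares among those are not given here.

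**Figure D1:**
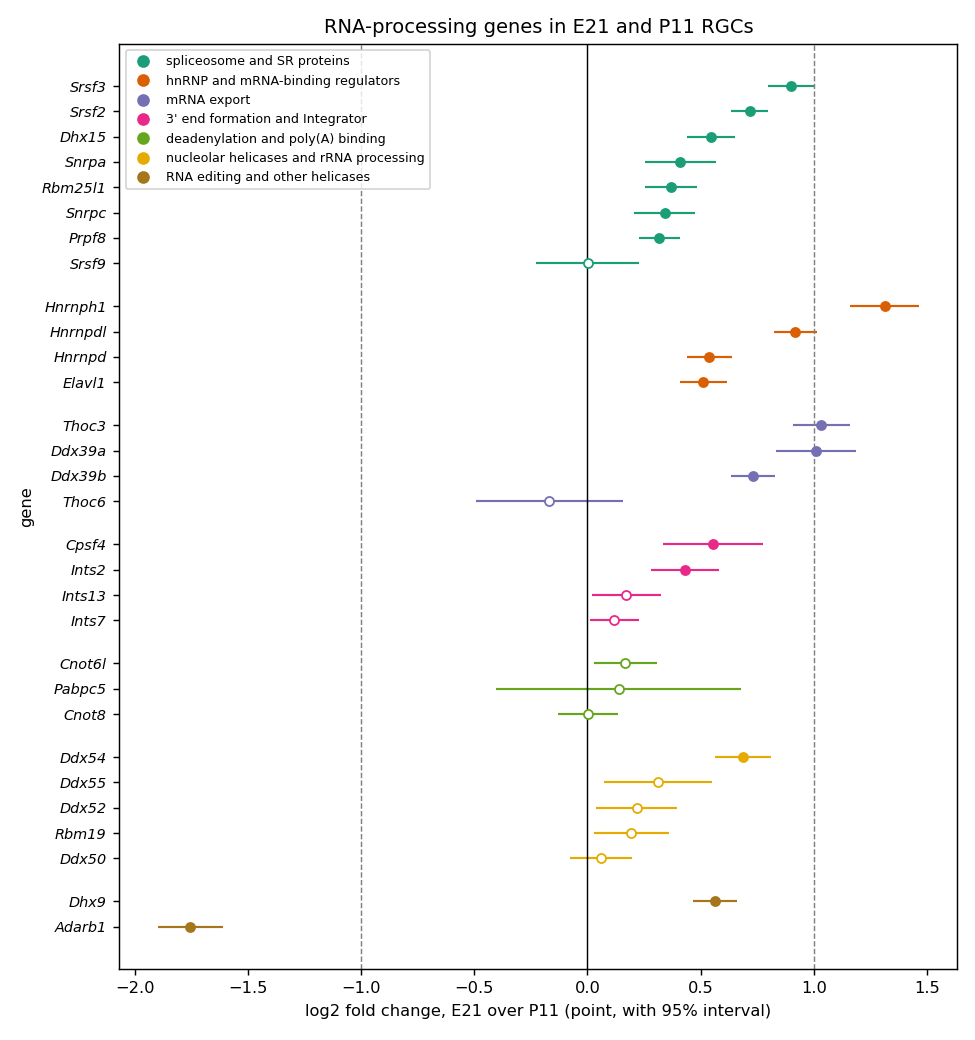
Log2 fold change of E21 over P11 for each of the 30 tested genes, grouped by role, with the 95% interval as a line. Filled points are past an adjusted p of 0.01, open points are not, and the dashed lines mark a doubling in either direction. Adarb1 at -1.75 stands alone on the left, and Hnrnph1 at 1.31 is the farthest to the right.

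**Figure D2:**
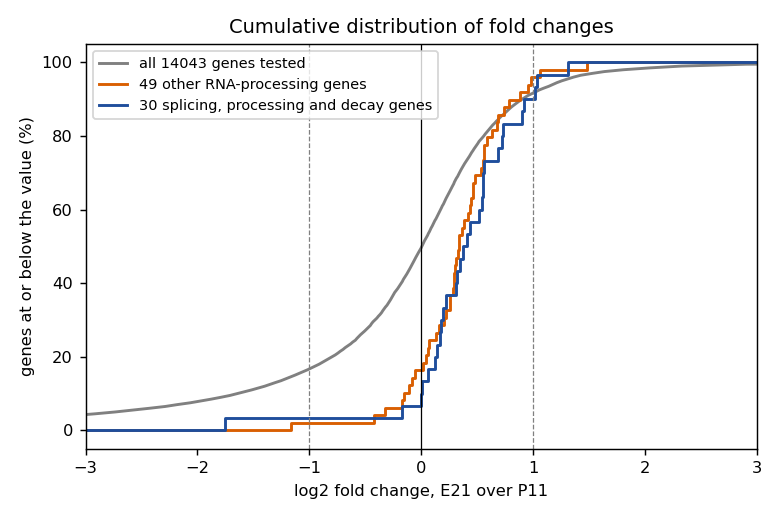
Cumulative share of genes (vertical axis, percent) at or below each log2 fold change of E21 over P11 (horizontal axis) for the 30 members, the 49 other RNA-processing genes tested and all genes tested. Both gene lists cross 50% to the right of 0, at 0.39 and 0.33, while all genes cross it at 0.0042.

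Summed over the members, the level was 3188 to 3321 CPM (read counts divided by TMM-normalized library size) in the E21 libraries and 2361 to 2457 CPM in the P11 libraries. Without Adarb1 the mean was 3130 ± 62.7 CPM at E21 and 2029 ± 60.2 CPM at P11 (SD, n = 4 in each). Among members in the top tertile of expression, the median coefficient of variation was 3.50% at E21, against 4.13% for all genes in that tertile. At P11 the members varied more, with 5.33% against 4.39%. Over all 30 tested members the median was 4.20% at E21 and 6.74% at P11. E21 replicate 4 had the highest level of its stage in 13 of the 30 genes, and P11 replicates 1 and 4 in 11 each.

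**Figure D3:**
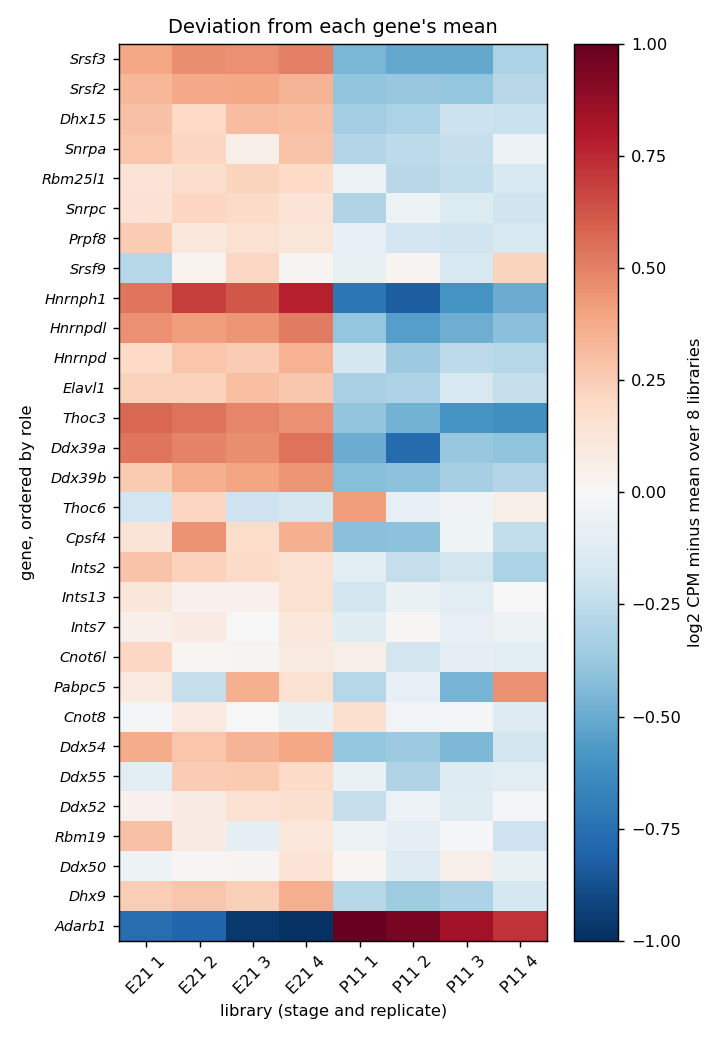
Log2 CPM of each tested gene in each of the 8 libraries, minus the gene's mean over the 8, from blue (lower) to red (higher). The 4 E21 columns are red and the 4 P11 columns blue for most rows, Adarb1 in the last row has the opposite colours, and rows such as Srsf9, Cnot8 and Ddx50 are pale or mixed in both stages.

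The 4 called genes are shown with the sequence in front of their transcription start, since they carry the largest changes and the study examined DNA motifs in the accessible chromatin of these cells. Each line gives the 250 bases before the first start that RefSeq lists, 5' to 3' on the gene's strand, with its position in the GRCr8 build. Capitals mark matches to the motifs named after the sequences.
Adarb1, chr20:11221921-11222170, plus strand: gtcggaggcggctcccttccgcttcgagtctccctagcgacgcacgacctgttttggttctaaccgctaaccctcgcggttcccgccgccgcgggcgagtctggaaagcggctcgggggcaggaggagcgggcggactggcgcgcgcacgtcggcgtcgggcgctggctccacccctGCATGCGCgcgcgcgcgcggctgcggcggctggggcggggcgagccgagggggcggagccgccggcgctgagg
Hnrnph1, chr10:35194383-35194632, plus strand: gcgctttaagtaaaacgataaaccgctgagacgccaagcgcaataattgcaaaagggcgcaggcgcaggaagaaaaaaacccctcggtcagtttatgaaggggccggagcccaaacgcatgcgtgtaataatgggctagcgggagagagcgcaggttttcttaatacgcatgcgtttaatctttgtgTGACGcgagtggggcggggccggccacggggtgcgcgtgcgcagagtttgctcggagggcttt
Thoc3, chr17:10148031-10148280, plus strand: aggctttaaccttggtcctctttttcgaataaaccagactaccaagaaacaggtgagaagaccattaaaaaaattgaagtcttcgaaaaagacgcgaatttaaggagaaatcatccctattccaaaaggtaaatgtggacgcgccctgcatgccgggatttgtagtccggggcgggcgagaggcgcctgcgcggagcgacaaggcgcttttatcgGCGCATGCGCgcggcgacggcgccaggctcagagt
Ddx39a, chr19:41331414-41331663, minus strand: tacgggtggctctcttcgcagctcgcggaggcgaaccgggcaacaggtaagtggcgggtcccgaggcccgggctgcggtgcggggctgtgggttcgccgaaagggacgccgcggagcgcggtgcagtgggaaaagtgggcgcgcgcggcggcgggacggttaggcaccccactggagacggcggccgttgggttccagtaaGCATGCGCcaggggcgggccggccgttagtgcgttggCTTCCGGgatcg

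Letters were searched on both strands of these 250 bases for a cyclic AMP response element (CRE, TGACGTCA), its half-site (TGACG or CGTCA, which a full CRE also contains), a core of the NRF-1 motif (GCATGCGC or GCGCATGC) and a core of the ETS motif (CCGGAAG or CTTCCGG). The NRF-1 letters were chosen after these 4 sequences had been read. Adarb1 held an NRF-1 core that began 73 bases before the start, Ddx39a held one at 49 bases and an ETS core at 12 bases, and Thoc3 held overlapping NRF-1 cores at 35 and 33 bases. Of the letters searched, Hnrnph1 held only a CRE half-site, at 63 bases. Exact letters alone were counted, so variants of a motif in any of these sequences were not. A promoter sequence was found for 30 of the 32 members. The NRF-1 core was in 5 of these (16.7%: Adarb1, Ddx39a, Ddx39b, Ints7 and Thoc3), against 2.38% of all 27457 promoters. That share includes Adarb1, Ddx39a and Thoc3, read before the letters were chosen, so the excess is not independent of the choice. The ETS core was in 6 (20%), against 7.74%, the CRE half-site in 11 (36.7%), against 19.0%, and the full CRE in 1 (3.33%, Ints7), against 1.70%. Of the members with a promoter, 17 were past the adjusted p at E21. Among these the NRF-1 core was in 3 (17.6%), the ETS core in 4 (23.5%), the half-site in 6 (35.3%) and the full CRE in 0. These shares lay near those of all members. Members' promoters were also richer in G and C, with a median of 63% against 52% over all promoters, and the part of base composition in these shares was not tested. A match is a stretch of letters, and the same NRF-1 core stood before Adarb1, which was higher at P11, and before Thoc3 and Ddx39a, which were higher at E21.

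Adarb1 (ENSRNOG00000001227), the RNA-editing enzyme ADAR2, had the largest change of all members. It had 124, 121, 108 and 106 CPM in E21 replicates 1 to 4, and 417, 406, 376 and 347 CPM in P11 replicates 1 to 4. The lowest P11 library was far above the highest E21 library. The P11 mean was 3.37-fold higher, a log2 fold change of -1.75 ± 0.07 (SE) and an edgeR adjusted p of 1.89e-11. Over all alternative settings the log2 fold change stayed between -1.81 and -1.71.

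Of the members higher at E21, Hnrnph1 (ENSRNOG00000003399), an hnRNP that binds runs of G and regulates splicing, had the largest difference. Its level was 303, 339, 323 and 360 CPM at E21 and 127, 118, 138 and 149 CPM at P11. The lowest E21 library was far above the highest P11 library. The mean was 2.49-fold higher at E21, with a log2 fold change of 1.31 ± 0.07 (SE) and an edgeR adjusted p of 1.79e-09. It and Adarb1 were the members whose change was past a log2 fold change of 1 when the test itself was made against that value (edgeR's glmTreat).

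**Figure D4:**
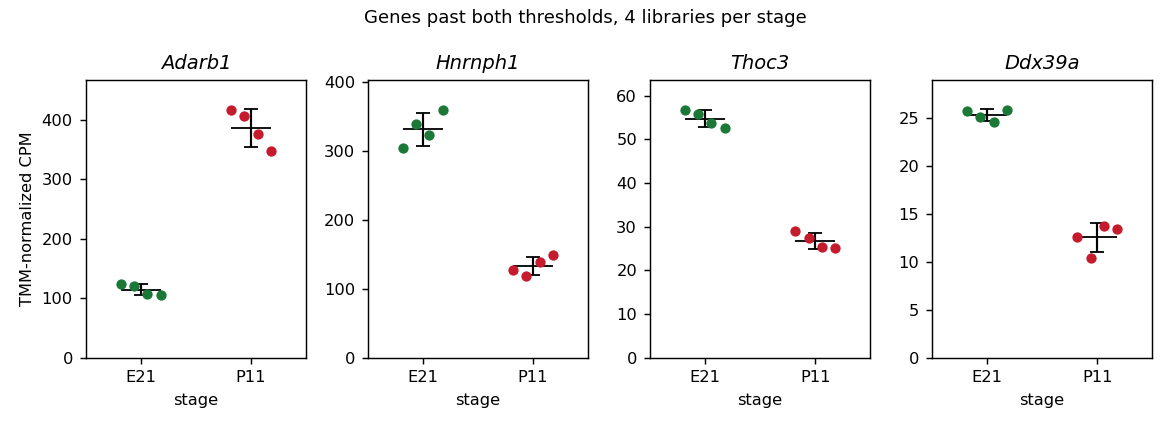
TMM-normalized CPM (vertical axis, from 0) of Adarb1, Hnrnph1, Thoc3 and Ddx39a in the 4 E21 (green) and 4 P11 (red) libraries, with the mean as a bar and the SD as whiskers. The stages do not overlap in any panel: Adarb1 is higher in every P11 library and the other genes in every E21 library.

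Of 4 members in mRNA export, 3 (75%) were past the adjusted p at E21, against 33.8% of all genes. Thoc3 (ENSRNOG00000000104) belongs to the THO complex, which couples transcription to export. It had 56.8, 55.7, 53.7 and 52.5 CPM at E21 and 29.1, 27.5, 25.4 and 25 CPM at P11. No library of one stage came near the other stage, and the mean was 2.05-fold higher at E21 (log2 fold change 1.03 ± 0.06 SE, edgeR adjusted p 7.84e-11).

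Ddx39a (ENSRNOG00000004373) and Ddx39b encode closely related helicases that load export factors onto mRNA. Ddx39a had 25.8, 25.1, 24.6 and 25.9 CPM at E21 and 12.6, 10.4, 13.7 and 13.5 CPM at P11. It was 2.01-fold higher at E21, a log2 fold change of 1.01 ± 0.08 (SE) and an edgeR adjusted p of 7.46e-09. Ddx39b had 532, 572, 586 and 605 CPM at E21 and 332, 335, 353 and 364 CPM at P11, again with no overlap, and was 1.66-fold higher at E21 (edgeR adjusted p 2.48e-10). Thoc6, another THO subunit, did not pass: it had 4.62 to 6.18 CPM at E21 and 5.03 to 7.12 CPM at P11, and its log2 fold change was -0.17 with a 95% interval of -0.49 to 0.16. Thoc3 and Ddx39a lay just past the fold threshold, and their calls ended under library-size and upper-quartile scaling (0.98 and 0.99 for Thoc3, 0.96 and 0.96 for Ddx39a), while both stayed past the adjusted p. Ddx39a overlaps Adgre5 and Thoc6 overlaps Hcfc1r1 in RefSeq, and the part of shared reads was not tested. Without P11 replicate 2 Ddx39a came to 0.91, and without P11 replicate 3 or 4 Thoc3 came to 0.999 or 0.998.

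Within each library the ratio of Ddx39a to Ddx39b counts, which does not depend on scaling, was 4.43% ± 0.291 at E21 and 3.64% ± 0.352 at P11 (SD, n = 4). Its log2 values at E21 were -4.37, -4.51, -4.58 and -4.55, and at P11 -4.71, -5.00, -4.68 and -4.75. The E21 values were all above the P11 values, by 0.29 on average, with p = 0.0286 in an exact two-sided permutation test, the smallest that 4 against 4 libraries allow, and 0.0429 after Benjamini-Hochberg adjustment over 3 ratios. The ratio of counts is not a ratio of transcripts, since no transcript lengths were used.

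All 4 tested members among the hnRNPs and mRNA-binding regulators were past the adjusted p at E21, against 33.8% of all genes. All 4 were in the top tertile of mean expression, where the share of all genes was 47.3%. After Hnrnph1, the next largest was Hnrnpdl, which binds AU-rich elements of mRNAs. It had 186, 181, 184 and 194 CPM at E21 and 104, 92.3, 96.4 and 101 CPM at P11 (1.89-fold higher at E21, edgeR adjusted p 8.22e-12). Hnrnpd, also known as AUF1, had 169 to 187 CPM at E21 and 114 to 131 CPM at P11, a 1.45-fold difference (edgeR adjusted p 1.67e-08). The stages did not overlap for either gene.

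Hnrnpdl changed more than Hnrnpd. The ratio of Hnrnpd to Hnrnpdl counts was 95.5% ± 3.41 at E21 and 124% ± 3.57 at P11 (SD, n = 4). Its log2 values were -0.14, -0.02, -0.06 and -0.05 at E21 and 0.34, 0.31, 0.35 and 0.26 at P11. The sign thus differed between the stages in every library, and the difference of -0.38 gave p = 0.0286 in the exact two-sided permutation test (0.0429 adjusted over 3 ratios). Hnrnpdl overlaps another protein-coding gene, Enoph1, in RefSeq, and the part of shared reads was not tested.

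Elavl1 encodes HuR, which stabilizes mRNAs with AU-rich elements and is present in most cells. It had 72.4, 72.6, 76.3 and 74.6 CPM at E21 and 49.4, 50.1, 55.5 and 52.5 CPM at P11, so that the groups stood apart, with a 1.43-fold higher mean at E21 (edgeR adjusted p 5.4e-08). Rbm47, an RNA-binding cofactor of cytidine editing, could not be tested. It had 1, 5, 2 and 0 reads at E21 and 2, 6, 2 and 0 at P11, where 3 reads correspond to 0.152 to 0.219 CPM.

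**Figure D5:**
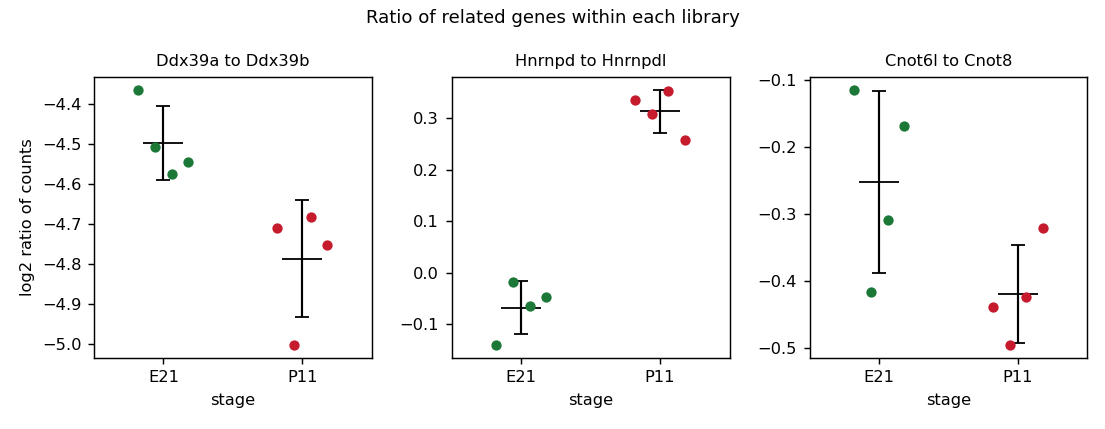
Log2 ratio of counts within each library (vertical axis) for Ddx39a to Ddx39b, Hnrnpd to Hnrnpdl and Cnot6l to Cnot8 in E21 (green) and P11 (red), with mean and SD. The stages are separate in the first and second panels and overlap in the last, Cnot6l to Cnot8.

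Of 8 members of the spliceosome and SR protein group, 7 (87.5%) were past the adjusted p at E21, against 33.8% of all genes. No log2 fold change in the group reached 1. In the top tertile of mean expression, which held 5 of the 8, the share of all genes was 47.3%. Srsf3, a small SR protein that regulates splicing and export, came closest, with 166, 176, 174 and 180 CPM at E21 and 92.7, 89.2, 89.1 and 102 CPM at P11. This gave a log2 fold change of 0.90 ± 0.05 (SE; edgeR adjusted p 3.04e-11). Srsf2, which binds exonic enhancers, had 321, 332, 333 and 322 CPM at E21 and 194, 196, 196 and 211 CPM at P11, a 1.64-fold difference (edgeR adjusted p 4.03e-11). Neither gene had overlapping stages.

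Srsf9, of the same protein family, did not follow them. Its level was 12.4, 15.5, 17.5 and 15.4 CPM at E21 and 14.3, 15.4, 13.5 and 17.6 CPM at P11, so that the stages lay on top of each other. The mean was 15.2 CPM in both, with a log2 fold change of 0.00 and a 95% interval of -0.23 to 0.23, so that a difference of the size seen in Srsf2 or Srsf3 lay outside the interval. The difference between Srsf9 and its relatives was not itself tested.

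Among core components, Dhx15, the helicase that takes the spent spliceosome apart, had 72.5, 68.0, 73.3 and 73.0 CPM at E21 and 46.5, 47.7, 51 and 50.8 CPM at P11 (1.46-fold higher at E21, edgeR adjusted p 2.85e-08). Prpf8, the scaffold of the catalytic centre, had 432 to 480 CPM at E21 and 350 to 379 CPM at P11, a 1.25-fold difference (edgeR adjusted p 3.93e-06). These are small changes in genes whose libraries nonetheless stood apart by stage. Snrpa and Snrpc, proteins of the U1 particle that recognizes the 5' splice site, were 1.33-fold and 1.27-fold higher at E21 (edgeR adjusted p 8.58e-05 and 0.000118). Snrpa had 25.7 to 30.1 CPM at E21 and 20.1 to 23.9 CPM at P11, and Snrpc had 31.2 to 32.8 and 23.0 to 27.3 CPM. Rbm25l1, named as a copy of the splicing regulator Rbm25, had 56.3 to 59.9 CPM at E21 and 42.1 to 49.2 CPM at P11 (1.29-fold higher at E21, edgeR adjusted p 1.14e-05). Reads that align to both genes would have been left out, and reads of Rbm25 may still be among its counts. Neither effect was tested.

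Dhx9, or RNA helicase A, which unwinds double-stranded RNA, was the other tested member beside Adarb1 in the group of editing and other helicases. It had 204, 208, 203 and 220 CPM at E21 and 140, 134, 138 and 152 CPM at P11. It was higher at E21, by 1.48-fold (edgeR adjusted p 5.83e-09), with no overlap between stages, whereas Adarb1 was higher at P11. Ddx3y, the Y-linked counterpart of the translation helicase Ddx3x, had 0 to 9 reads at E21 and 1 to 2 at P11 and was not tested.

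In 3' end formation, Cpsf4, a subunit of the complex that recognizes the polyadenylation signal, had 14.1, 17.6, 14.6 and 16.5 CPM at E21 and 9.68, 9.71, 12.6 and 10.9 CPM at P11. It was 1.47-fold higher at E21 (edgeR adjusted p 0.000125), and its lowest E21 library stood above its highest P11 library. The Integrator complex cleaves small nuclear RNAs and other transcripts of RNA polymerase II. Its subunit Ints2 had 20.1 to 22.1 CPM at E21 and 14.6 to 16.7 CPM at P11, a 1.35-fold difference (edgeR adjusted p 3.64e-05). Ints7 and Ints13 did not pass the adjusted p of 0.01, with log2 fold changes of 0.12 (95% interval 0.01 to 0.23) and 0.17 (0.02 to 0.32) and edgeR adjusted p of 0.0459 and 0.0399. Ints13 had 17.5 to 18.9 CPM at E21 and 14.9 to 17.0 CPM at P11 without overlap, whereas Ints7 had 46.0 to 49.4 and 42.3 to 46.3 CPM, which overlapped.

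None of the 3 members in deadenylation and poly(A) binding was past the adjusted p of 0.01. Of all genes, 33.8% were past it at E21 and 34.6% at P11. Without a p adjustment, 1 of the 3 (Cnot6l) had p below 0.05, and DESeq2's Wald test called none of them. Cnot6l and Cnot8 are the CCR4-like and CAF1-like nucleases of the CCR4-NOT complex, which shortens poly(A) tails. Cnot8 had 46.1, 49.7, 46.4 and 44.1 CPM at E21 and 52.0, 45.7, 46.1 and 42.6 CPM at P11, with a mean of 46.6 CPM in each stage and a 95% interval of the log2 fold change of -0.13 to 0.14. Cnot6l had 37.2 to 42.6 CPM at E21 and 32.4 to 38.3 CPM at P11, which overlapped (log2 fold change 0.17, edgeR adjusted p 0.0264).

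The ratio of Cnot6l to Cnot8 counts was 84.2% ± 7.87 at E21 and 74.8% ± 3.82 at P11 (SD, n = 4). The log2 difference of 0.17 gave p = 0.0571 in the exact permutation test, also after adjustment over 3 ratios, and the stages overlapped. Pabpc5, a cytoplasmic poly(A)-binding protein, was close to the limit of detection, with 1.11 to 1.68 CPM at E21 and 0.952 to 1.80 CPM at P11. Its 95% interval of -0.40 to 0.68 includes changes as large as those of Cpsf4 or Dhx15.

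Of the 5 nucleolar genes, which act in ribosomal RNA processing, 1 (20%) was past the adjusted p at E21, against 33.8% of all genes. Ddx54 had 67.4, 63.1, 66.0 and 68.2 CPM at E21 and 39.7, 40.5, 38.0 and 45.9 CPM at P11, so that the stages were well apart. It was 1.61-fold higher at E21 (edgeR adjusted p 1.25e-08). Ddx54 overlaps Cfap73 in RefSeq. The helicases Ddx52, Ddx55 and Ddx50 had log2 fold changes of 0.22, 0.31 and 0.06 with 95% intervals of 0.04 to 0.40, 0.07 to 0.55 and -0.08 to 0.20, and edgeR adjusted p of 0.0284, 0.0191 and 0.403. Rbm19, needed for pre-ribosomal RNA cleavage, had 24.9 to 32.8 CPM at E21 and 23.1 to 26.3 CPM at P11 (log2 fold change 0.19, edgeR adjusted p 0.0343). Of these 4, the stages did not overlap for Ddx52, which had 12.8 to 13.8 CPM at E21 and 10.5 to 12.2 CPM at P11.

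A second list held 51 RNA-processing genes that the naming rule does not reach, of which 49 were tested. Past the adjusted p were 35 at E21 (71.4%, against 33.8% of all genes) and 5 at P11 (against 34.6%), with a median log2 fold change of 0.33. Past both thresholds were 2 at E21 (4.08%, against 8.16% of all genes) and 1 at P11 (2.04%, against 16.5%), so that the share called at E21 was below that of all genes. Among the other splicing regulators, 15 of 20 were past the adjusted p at E21. The count was 10 of 15 among other genes of the spliceosome and of snRNP assembly, and 10 of 14 among other genes of capping, 3' end formation, export and decay. In the top tertile of mean expression, 22 of 30 (73.3%) were past it at E21, against 47.3% of all genes in that tertile. By list, in the same order, these were 14 of 18, 4 of 4 and 4 of 8 (50%), the last near the share of all genes.

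Rbmx, an X-linked hnRNP, had 101, 94.8, 93.7 and 93.2 CPM at E21 and 33.8, 30.1, 36.5 and 37.2 CPM at P11 (log2 fold change 1.48 ± 0.06 SE, edgeR adjusted p 1.15e-12). Nono, a paraspeckle protein, had 357 to 369 CPM at E21 and 165 to 187 CPM at P11 (1.06 ± 0.04 SE, edgeR adjusted p 6.82e-13). Both were higher in every E21 library, like Hnrnph1. Rbms2, an RNA-binding protein, went the other way, with 6.69 to 7.80 CPM at E21 and 15.3 to 18 CPM at P11 (-1.16 ± 0.09 SE, edgeR adjusted p 6.86e-09). The others past the adjusted p at P11, named after their values were seen, were the neuronal splicing regulator Rbfox1, Grsf1, Skiv2l and Mcm3ap, with log2 fold changes of -0.42, -0.32, -0.17 and -0.16. Rbfox1 had 421 to 468 CPM at E21 and 550 to 622 CPM at P11, and all 4 were higher in every P11 library than in any E21 library.

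Markers of other cells also differed between the stages. The summed level of 6 vascular and mural markers, of which 5 were called at P11, was 4.71 to 7.30 CPM at E21 and 413 to 806 CPM at P11. The 6 photoreceptor markers that could be named summed to 6.99 to 8.5 CPM at E21 and 29.9 to 49.4 CPM at P11 (4 called at P11), 4 bipolar markers to 41.4 to 49.0 and 87.3 to 94.5 CPM, and 2 amacrine markers to 6.29 to 7.30 and 13.3 to 21 CPM. The bipolar sum rested on Prkca (a mean of 38.3 CPM at E21 and 87.5 CPM at P11), while Grm6 was higher at E21 (5.97 and 3.37 CPM). The amacrine markers went opposite ways, Gad1 having a mean of 0.856 CPM at E21 against 13.8 CPM at P11, and Prox1 one of 5.97 against 2.63 CPM. The 3 glial markers summed to 2.62 CPM or less in any library, with Gfap at 3 reads or fewer throughout, and 3 microglial markers to 0.952 CPM or less. S100b, the only glial marker tested, was called at P11 (a mean of 0.029 CPM at E21 and 1.64 CPM at P11), while Sox9 was lower there (0.623 and 0.354 CPM). Of 12 RGC markers 3 could be named, Gap43, Rbfox3 and Atoh7, and most defining RGC markers were not analysed here. The 3 summed to 1789 to 1883 CPM at E21 and 721 to 783 CPM at P11, in the direction of most members. That sum was carried by Gap43, a growth-associated protein of axons, which was called at E21 (log2 fold change 1.46), while Rbfox3 had a log2 fold change of -0.08. In bulk RNA, fewer cells of a type and less RNA per cell cannot be told apart.

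In P11 replicates 1 to 4, where Adarb1 had 417, 406, 376 and 347 CPM, the vascular and mural sum was 552, 643, 413 and 806 CPM. The sum was 4.71 to 7.30 CPM in the E21 libraries. Every P11 library was far above that, so the order within P11 cannot address the difference between stages. Without the 2 P11 libraries that held the most vascular and mural marker RNA (replicates 4 and 2), Adarb1 came to -1.79, Hnrnph1 to 1.32 and Thoc3 to 1.01, Ddx39a fell below the fold threshold at 0.94, and 18 members were again past the adjusted p at E21. The P11 libraries that remained still held 413 and 552 CPM of these markers, so this shows only that the values did not rest on the other 2. The part of other cell types in the fold changes was not tested.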

How the data were processed

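The authors trimmed reads with cutadapt 1.16, aligned them with STAR 2.5.3a to the Rnor_6.0 genome, used HTSeq 0.6.1 for counting, and deposited 1 file of raw counts over Ensembl gene IDs per library, with no normalization. Ribosomal RNA had been depleted from the total RNA. The annotation release and the strand setting are not given in the sources used here, so overlapping genes may share reads: 8 of the 32 members overlap another protein-coding gene in RefSeq (Snrpa, Hnrnpdl, Elavl1, Thoc6, Ddx39a, Cpsf4, Ints2 and Ddx54). Reads that aligned to several places (a mean of 40.3% of reads at E21 and 34.7% at P11) were left out. Reads without a gene (15.4% to 19.2% over the libraries) were left out too. Depth was 13899299 to 20116017 counted reads at E21 and 14780002 to 17756824 at P11. No molecular identifiers are described, and intervals cover the spread between libraries.

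Gene symbols came from the study's supplementary gene table, of which 1998 rows were used. The counts were filtered (filterByExpr), normalized by TMM and tested with edgeR 4.0.16 in R 4.3.3 by the quasi-likelihood test with robust estimation, with all 8 libraries in 1 model and Benjamini-Hochberg adjustment over 14043 genes. The study used DESeq2, which was run as an alternative (1.42.0). Standard errors were obtained as the absolute log2 fold change over the root of the F statistic. Ratios had 0.5 added to each count and were tested by exact two-sided permutation with scipy 1.17.1. On simulated data with 200 of 14043 genes changed, at log2 changes of 2 and 3, edgeR recovered 199 with 0 unchanged genes called, and DESeq2 recovered 199 with 1. The members' changes were smaller than these, so the simulation does not address calls near the fold threshold. Replicates within a stage differed by more than counting noise (chi-square per degree of freedom 2.86 to 8.12), so none was counted as a repeat of another.

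Every member is named, and of the other RNA-processing genes the 4 largest changes past both thresholds in each direction and list. The members and lists were chosen with earlier results of these data known. Alternatives were other scalings, filters, thresholds and tests, the replicate number as a block, and leaving out each library.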

Additional observations from a re-analysis of the deposited data

Results flagged for a closer look

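Among 66 sets of 4 libraries (the tested members and ratios in each stage), 3 held a library that stood apart from the other 3 by Dixon's criterion, and chance gives about 1 in 20. Dhx15 had 68.0 CPM in E21 replicate 2, against 72.5 to 73.3 CPM in the other E21 libraries. Srsf2 had 211 CPM in P11 replicate 4, against 194 to 196 CPM in the other P11 libraries. Both values stayed on their own stage's side of the difference between E21 and P11. Thoc6 had 6.18 CPM in E21 replicate 2, against 4.62 to 4.75 CPM in the other E21 libraries, within the range of the P11 libraries.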

How the results depend on the processing

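Adarb1 was called at P11 and Hnrnph1 at E21 under every alternative run, with log2 fold changes of -1.81 to -1.71 and 1.25 to 1.37. The count of members past the adjusted p at E21 stayed at 18 or 19, except for 24 at an adjusted p of 0.05 and 1 with edgeR's glmTreat, whose test against a log2 fold change of 1 also left 1 of the other RNA-processing genes at E21 and 0 at P11 (there 1, Rbms2, had an unadjusted p under 0.05, and DESeq2's Wald test called 1 at P11). The count of members called at E21 was 3, and 1 with library-size scaling, upper-quartile scaling, a minimum of 10 counts in every library or glmTreat, 2 with DESeq2 (size factors or Wald test), and 2 to 3 when 1 library was left out (2 without P11 replicate 2, where Ddx39a came to 0.91, and without P11 replicate 3 or 4, where Thoc3 came to 0.999 or 0.998). The median of all genes was 0.0042, and -0.0083, -0.044 and -0.050 with DESeq2 size factors, upper-quartile and library-size scaling. Values near 0 changed sign: Srsf9 came to -0.012 (DESeq2 size factors and Wald test), -0.055 (library size), -0.048 (upper quartile) and -0.037 (minimum of 10 counts), and ran from -0.077 to 0.091 with 1 library left out. Cnot8 came to -0.0083, -0.0088, -0.049, -0.044 and -0.033 under DESeq2 size factors, the Wald test, library size, upper quartile and the minimum of 10 counts, to -0.069 without the 2 P11 libraries with the most vascular marker RNA (chosen after the data were seen), and ran from -0.041 to 0.060 with 1 library left out. Ddx50 came to -0.0092 without those 2 libraries.

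The replicate numbers gave no clear sign of a pairing. Deviations of same-numbered libraries correlated at -0.023, 0.090, -0.032 and 0.078, and 4 of 8 libraries correlated best with their own number. With so few libraries per stage, these values cannot exclude a pairing. With the replicate block 18 members were again past the adjusted p at E21 and 3 called. For the ratios, the block left differences of 0.29 (Ddx39a to Ddx39b) and -0.38 (Hnrnpd to Hnrnpdl) with an exact p of 0.125, the smallest that 4 pairs allow. With 1 library left out the differences ran from 0.217 to 0.323 and from -0.399 to -0.356, and the smallest exact p that 4 against 3 libraries allow is 0.0571. Depth limits Pabpc5, Thoc6 and the untested Rbm47 and Ddx3y.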
